A study of Mus musculus with 4 samples.

Results

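The 38 genes described here encode enzymes and carriers that remove superoxide and peroxides, make and recycle glutathione and thioredoxin, store and move iron, and limit lipid peroxidation. They were chosen by name from a table of 56691 genes, by what their proteins do, but with earlier results of these data known. A row was found for each. The data were 4 RNA-seq libraries of wild-type mouse primary cardiac fibroblasts, isolated from neonatal hearts between postnatal days 1 and 3, and in all 4 the cells had received MGT, the transcription factors Mef2c, Gata4 and Tbx5. The MGT+shNT group (2 libraries) also received a non-targeting short hairpin RNA and the MGT+shScd1 group (2 libraries) a hairpin directed at Scd1. Harvest was on day 7 of reprogramming, towards cells called induced cardiomyocyte-like cells. The series asks how lowering Scd1, the gene of stearoyl-CoA desaturase, which makes monounsaturated fatty acids, changes that reprogramming. No library without the reprogramming factors or without a hairpin is used here, so the values compare the hairpins only on the MGT background. The labels do not say how many hairpin sequences against Scd1 were used, or whether replicates stem from different cultures or litters.

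Superoxide leaks from mitochondria and is made by oxidases, superoxide dismutases turn it into hydrogen peroxide, and catalase, glutathione peroxidases and peroxiredoxins remove the peroxide with electrons from glutathione or thioredoxin. The transcription factor NRF2, held in check by KEAP1, switches on many of these genes. Free iron turns peroxides into radicals that attack polyunsaturated membrane lipids, and cells die by ferroptosis when GPX4, the enzyme that reduces lipid peroxides, is overrun. Monounsaturated fatty acids, the products of SCD1, are known to make membranes less prone to that attack.

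The libraries held between 15135227 and 20894972 counts. Scd1 itself fell from 84.2 and 63.4 CPM in the MGT+shNT libraries to 6.62 and 8.03 CPM in the MGT+shScd1 libraries (log2 fold change -3.34, SE 0.14, adjusted p = 4.31e-09). CPM is the count relative to a TMM-scaled library size, adjusted p is from the quasi-likelihood test of edgeR, adjusted by Benjamini-Hochberg over 16234 genes, and a gene is said to have risen or fallen, or to have been called, where it is below 0.05. Ribosomal RNA set MGT+shNT replicate 2 apart, since 3.32% of its counts fell on Rn18s-rs5 against 0.129% to 0.199% elsewhere. The cells were mixed in their markers: the sum of 12 fibroblast markers was 17109 and 15794 CPM in MGT+shNT and 11767 and 11921 CPM in MGT+shScd1, with 9 of the 12 lower by the test and 1 higher. Of 12 cardiomyocyte markers 6 rose, 3 fell and 3 did not pass (median log2 fold change 0.61). Their sum was 5338 and 6165 against 6233 and 6256 CPM, and without Tnnt2, the marker with most counts, which fell, it was 2348 and 2829 against 3703 and 3866 CPM. The sum of 20 macrophage markers was 1047 and 903 CPM in MGT+shNT and 281 and 282 CPM in MGT+shScd1, with 15 of the 20 lower by the test, 1 higher and none at 0. In bulk RNA, fewer cells of a type and less RNA per cell cannot be told apart, and this holds for every value below. Of 8 erythroid markers, 3 had no count in any library and none was tested, so red blood cell RNA was close to absent, and of 10 endothelial markers 3 fell and 7 did not pass. Without Eng, which gave most of their counts and is not limited to endothelium, the endothelial markers summed to 38.4 and 30.9 CPM against 27.4 and 28.8 CPM.

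All 38 genes passed the filter on low counts, the lowest single count being 42 for Slc7a11. Of them 9 rose, 9 fell and 20 did not pass, so that 18 of 38 (47.4%) were called, against 29.3% of all genes tested. The shares of all genes that rose and fell were 13.1% and 16.3%, against 23.7% for each direction among the members. The members are abundant, and 34 of them lay above the median CPM of all genes tested (17.6 CPM). Above that level 40% of all genes were called, against 16 of the 34 members (47.1%). The median log2 fold change (MGT+shScd1 over MGT+shNT) was 0.07 over the members and 0.0001 over all genes, and the median size without regard to sign was 0.22 and 0.24. CPM of the groups did not overlap for 28 of the 38 members (73.7%), 16 higher and 12 lower in MGT+shScd1, against 64.3% of all genes.

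The changes of the called members were small beside those of all called genes, a comparison that was not matched for abundance. Over all 38 members and all genes tested, called or not, the median sizes were close (0.22 and 0.24). Sod3 was the single called member with a log2 fold change of at least 1 in size (1 of 18, 5.56%), against 930 of 4763 called genes (19.5%), and 13 of the 18 (72.2%) lay under 0.5, against 2502 of the 4763 (52.5%). The count of called members was lower with either MGT+shScd1 library left out, which leaves a lone library in that group. Without MGT+shScd1 replicate 1 the count of all called genes was lower too. Without MGT+shNT replicate 2, the library with more ribosomal RNA, the count of called members was the same as in the full data. On the deposited FPKM values, as log2(FPKM + 1) with limma, the balance shifted to 10 that rose and 3 that fell, on a scale where the median of all genes was 0.06 higher; of all genes 2256 rose and 1249 fell there, against 2122 and 2641 in edgeR. Sod3, Prdx6, Txn1, Txn2, Srxn1 and Ftl1 kept their call and direction in all 14 alternatives that were run.

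**Figure D1:**
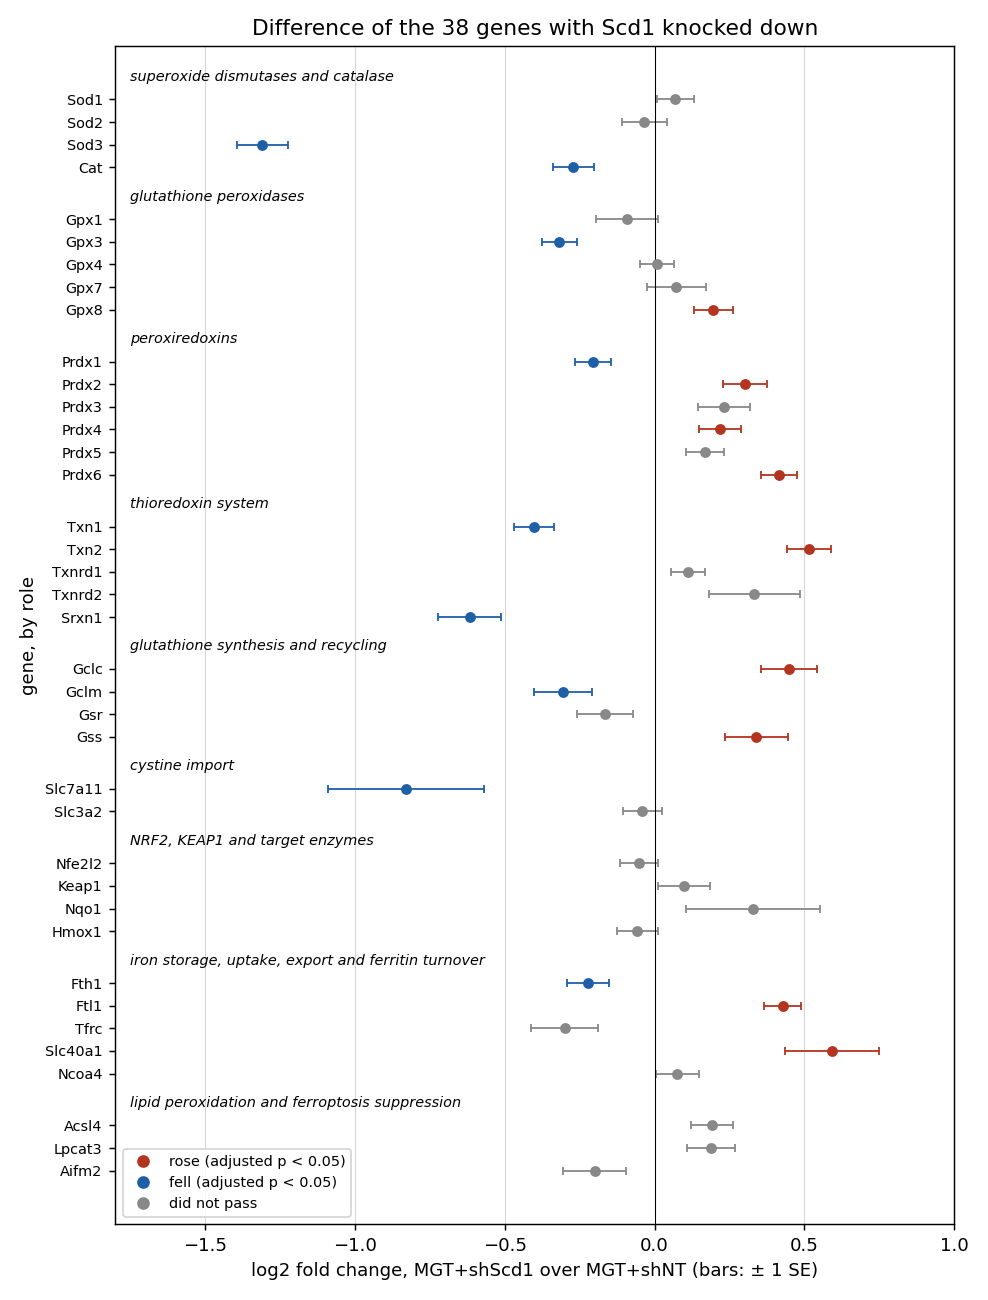
Log2 fold change of each of the 38 genes, MGT+shScd1 over MGT+shNT, from 2 libraries per group, ordered by role. Bars are 1 standard error, computed as the size of the log2 fold change over the square root of the edgeR F statistic. They do not show the spread of the 2 libraries. Red points rose, blue points fell and grey points did not pass. Sod3 lies far to the left at -1.31, while members of one family, such as the peroxiredoxins, thioredoxins and ferritin chains, lie on both sides of 0.

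Compared per length, as FPKM (a count relative to gene length and library total), the members spanned from 0.278 FPKM for Slc7a11 to 1077 FPKM for Gpx3, as means of the 4 libraries. Of the 38 genes, 26 had a mean of at least 10 FPKM, 6 of at least 100 FPKM and 2 of less than 1 FPKM. The highest were Gpx3, then Ftl1 at 878, Fth1 at 209, Gpx8 at 163, Gpx4 at 119 and Prdx1 at 105 FPKM. The lowest beside Slc7a11 were Slc40a1 at 0.958 and Txnrd2 at 1.90 FPKM.

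**Figure D2:**
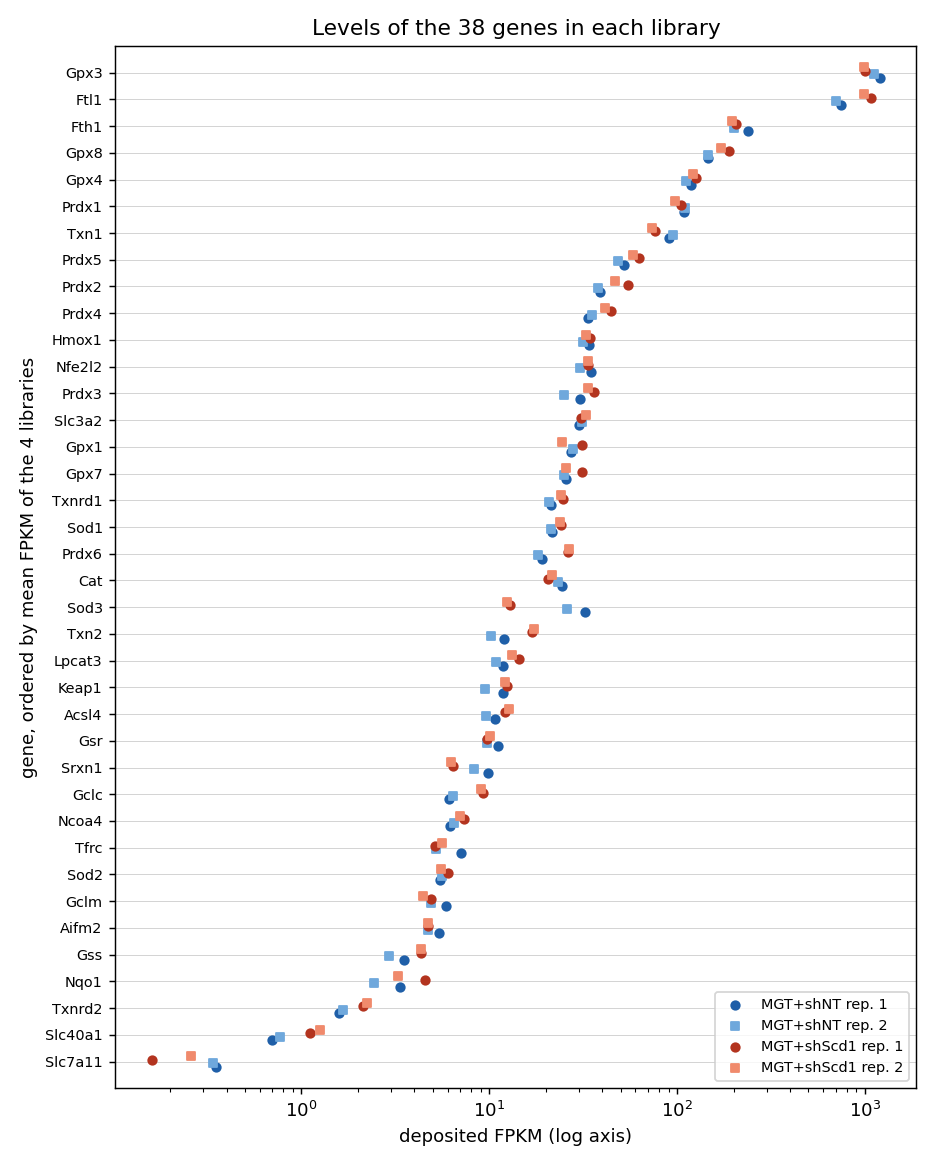
Deposited FPKM of the 38 genes in each of the 4 libraries, on a log axis, ordered by the mean of the 4; blue marks are MGT+shNT and red marks MGT+shScd1. The 4 marks of most genes lie close together, Sod3 separates the groups most widely among the abundant genes, and Slc7a11 is lowest.

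Among the superoxide dismutases, the secreted enzyme fell and the enzymes inside the cell did not pass. Sod3 (ENSMUSG00000072941, GRCm38 chr5:52363791-52371418, plus strand) encodes the extracellular superoxide dismutase, which binds to the matrix around cells. It stood at 123 and 102 CPM in MGT+shNT and at 46.4 and 44.7 CPM in MGT+shScd1. Both MGT+shScd1 libraries lay below both controls by more than the controls differed from each other, and Sod3 fell by 59.6% (log2 fold change -1.31, SE 0.08, adjusted p = 1.60e-07). Sod1, the cytosolic copper-zinc enzyme, had 86.8 and 89.3 CPM against 93.0 and 91.7 CPM (log2 fold change 0.07, adjusted p = 0.446). Sod2, the manganese enzyme of the mitochondrial matrix, had 55.6 and 59.7 CPM against 58.5 and 53.8 CPM, with overlapping groups (-0.03, adjusted p = 0.774).

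Catalase, which breaks down hydrogen peroxide in peroxisomes, fell slightly. Cat (chr2:103453849-103485160, minus strand) had 64.6 and 63.9 CPM in MGT+shNT and 52.0 and 54.5 CPM in MGT+shScd1 (log2 fold change -0.27, SE 0.07, adjusted p = 0.00911). The groups did not overlap, but the call was lost with either MGT+shScd1 library left out and on both FPKM scales.

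Of the 5 glutathione peroxidases, 1 fell, 1 rose and 3 did not pass. Gpx3 (chr11:54902453-54910377, plus strand), the secreted enzyme and the most abundant of the 38 genes per length, had 2207 and 2138 CPM in MGT+shNT and 1748 and 1737 CPM in MGT+shScd1. Its libraries agreed closely within each group, and it fell by 19.8% (log2 fold change -0.32, SE 0.06, adjusted p = 0.00109), a call that was lost on both FPKM scales. Gpx4, which reduces phospholipid peroxides and whose loss triggers ferroptosis, had 206 and 203 CPM against 209 and 202 CPM. Its groups overlapped (log2 fold change 0.01, SE 0.06, adjusted p = 0.935). The row of its pseudogene Gpx4-ps2 held 426 to 645 counts per library, so part of the Gpx4 reads may have been counted there; with both rows added together the log2 fold change was 0.01. Gpx1, the cytosolic enzyme, had 39.9 and 42.8 CPM against 43.2 and 34.1 CPM (-0.09, adjusted p = 0.553).

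Gpx7 and Gpx8 are peroxidases of the endoplasmic reticulum, where protein folding makes hydrogen peroxide, and the peroxiredoxin Prdx4 works in the same compartment. Gpx8 (chr13:113042753-113046410, minus strand) rose from 155 and 163 CPM to 190.4 and 173 CPM (log2 fold change 0.20, SE 0.06, adjusted p = 0.0342). Prdx4 (chrX:155323918-155340754, minus strand) rose from 71.8 and 78.7 CPM to 90.0 and 84.7 CPM (0.22, SE 0.07, adjusted p = 0.0309). Gpx7 had 33.5 and 34.0 CPM against 38.9 and 32.0 CPM, with overlapping groups (0.07, adjusted p = 0.636). Neither Gpx8 nor Prdx4 was called with either MGT+shScd1 library left out, without MGT+shNT replicate 1 or with DESeq2.

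The secreted enzymes Sod3 and Gpx3, set side by side after their values were seen, fell in the full data and also without each MGT+shScd1 library. They fell in libraries in which 9 of 12 fibroblast markers fell and 1 rose. The collagen genes were among those that fell (Col1a1 from 7396 and 7103 to 5097 and 5177 CPM, Col1a2 from 4367 and 4201 to 2083 and 2115 CPM, Col3a1 from 2337 and 1906 to 1050 and 1123 CPM). Postn was the marker that rose (from 1234 and 969 to 2266 and 2246 CPM), and Pdgfra and Dcn did not pass. The part of the fibroblast share in the fall of Sod3 and Gpx3 was not tested.

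Of the 6 peroxiredoxins, which reduce peroxides with a reactive cysteine, 3 rose, 1 fell and 2 did not pass. Prdx6 (chr1:161240112-161251219, minus strand), which uses glutathione and also repairs oxidised phospholipids, had 93.0 and 92.1 CPM in MGT+shNT and 123 and 124 CPM in MGT+shScd1. The replicates of Prdx6 lay close together in each group, and it rose by 33.3% (log2 fold change 0.42, SE 0.06, adjusted p = 0.000171). Prdx2 (chr8:84969587-84974834, plus strand), a cytosolic enzyme, rose from 120.1 and 123 CPM to 161 and 138 CPM (0.30, SE 0.07, adjusted p = 0.00682), and its call was lost without MGT+shScd1 replicate 1. Prdx3 of the mitochondrial matrix had 45.2 and 39.0 CPM against 51.5 and 47.9 CPM (0.23, adjusted p = 0.0595), and Prdx5, found in mitochondria, peroxisomes and cytosol, had 113 and 109.7 CPM against 130.2 and 120.3 CPM (0.17, adjusted p = 0.0647). Both sat just above the threshold with groups that did not overlap, as held for 64.3% of all genes tested. Both were called without MGT+shNT replicate 1 (0.36 and 0.20). Over all left-out libraries their log2 fold changes ran from 0.14 to 0.36 and from 0.11 to 0.22.

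Prdx1, the abundant cytosolic peroxiredoxin and a known NRF2 target, went the other way. Prdx1 (chr4:116685544-116700822, plus strand) had 334 and 352 CPM in MGT+shNT and 307 and 288 CPM in MGT+shScd1, and fell by 13.3% (log2 fold change -0.21, SE 0.06, adjusted p = 0.0206). The call was lost with either MGT+shScd1 library left out and on both FPKM scales. Srxn1 (chr2:152105516-152111376, plus strand), the gene of sulfiredoxin, which restores peroxiredoxins that peroxide has over-oxidised, had 28.2 and 24.7 CPM in MGT+shNT and 17.5 and 17.2 CPM in MGT+shScd1. Srxn1 fell by 34.8% (log2 fold change -0.62, SE 0.11, adjusted p = 0.000688), with groups that did not overlap.

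The thioredoxins, which hand electrons to the peroxiredoxins, moved in opposite directions in cytosol and mitochondria. Txn1 (chr4:57943373-57956411, minus strand), the cytosolic form, stood at 96.4 and 105 CPM in MGT+shNT and at 77.2 and 75.0 CPM in MGT+shScd1, and fell by 24.4% (log2 fold change -0.40, SE 0.07, adjusted p = 0.000529). Txn2 (chr15:77915047-77929006, minus strand), the mitochondrial form, stood at 51.1 and 45.7 CPM and at 68.4 and 70.4 CPM, and rose by 42.9% (0.52, SE 0.07, adjusted p = 0.000181). In neither gene did the groups overlap.

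The thioredoxin reductases, selenoproteins that recharge thioredoxin with NADPH, did not pass. Txnrd1 in the cytosol had 153 and 157 CPM against 169 and 165 CPM (log2 fold change 0.11, adjusted p = 0.163) and was called on the FPKM scales (0.20 and 0.21). Txnrd2 in mitochondria had 7.02 and 7.75 CPM against 9.05 and 9.48 CPM (0.33, SE 0.15, adjusted p = 0.120). Of the 4 members whose proteins work in the mitochondrial matrix (Sod2, Prdx3, Txn2 and Txnrd2), Txn2 was the 1 that was called.

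Within each library, the ratio of partner genes does not depend on how the library is scaled, and the pairs given here were chosen after their values were seen. Per length, the ratio of Txn2 to Txn1 was 0.132 and 0.108 in MGT+shNT against 0.221 and 0.234 in MGT+shScd1, 1.90-fold higher. The ratio of Gclc to Gclm, described next, was 1.05 and 1.31 against 1.89 and 2.03, 1.67-fold higher. The ratio of Ftl1 to Fth1 was 3.12 and 3.49 against 5.26 and 5.07, 1.56-fold higher. In each pair both MGT+shScd1 libraries lay above both controls. This follows from the choice of pairs, since the first gene rose and the second fell, each without overlap of the groups. The ratios are therefore no separate support for those calls. An exact permutation test over the 4 libraries, two-sided, gave p = 0.333 for each ratio, the smallest that its 6 arrangements allow.

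**Figure D3:**
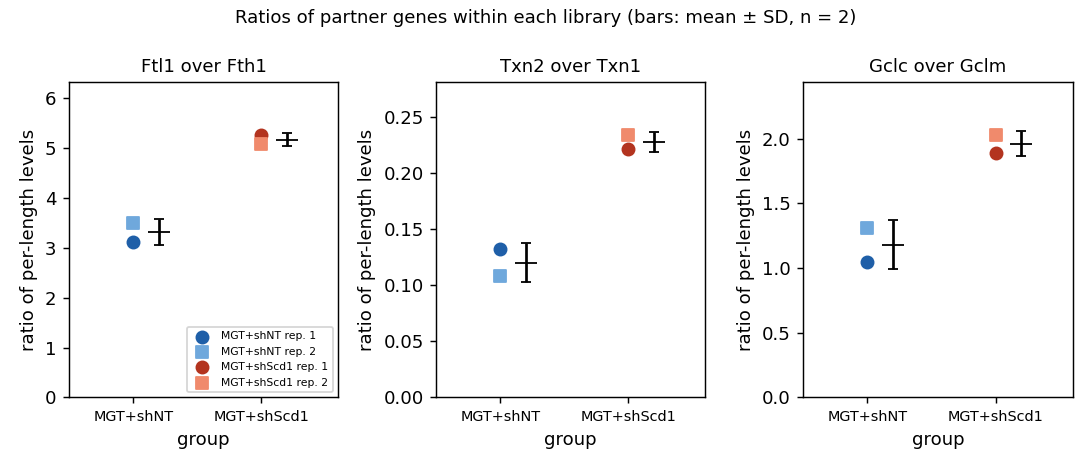
Ratio of per-length levels of partner genes in each library (vertical axes, from 0), with black bars for the mean ± SD of 2 libraries per group. For Ftl1 over Fth1, Txn2 over Txn1 and Gclc over Gclm the red MGT+shScd1 marks lie above the blue MGT+shNT marks, with no overlap. In each pair, chosen after its values were seen, the first gene rose and the second fell.

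Glutathione is made in successive steps, and the subunits of its rate-limiting enzyme, glutamate-cysteine ligase, moved apart. Gclc (chr9:77754535-77794485, plus strand), the catalytic subunit, had 23.4 and 25.6 CPM in MGT+shNT and 33.7 and 32.9 CPM in MGT+shScd1, and rose by 36.5% (log2 fold change 0.45, SE 0.09, adjusted p = 0.00246). Its call was lost without MGT+shScd1 replicate 1 (adjusted p = 0.0507). Gclm (chr3:122245557-122270732, plus strand), the modifier subunit that makes the enzyme more efficient, had 37.4 and 32.6 CPM against 29.8 and 27.0 CPM (-0.30, SE 0.10, adjusted p = 0.0313). Gss (chr2:155563181-155592810, minus strand), glutathione synthetase, which completes the molecule, rose from 21.01 and 18.2 CPM to 24.9 and 25.0 CPM (0.34, SE 0.10, adjusted p = 0.0271). The calls of Gclm and Gss were lost in 6 of the 14 alternatives each: with either MGT+shScd1 library left out, with DESeq2, on both FPKM scales and, for Gclm, without MGT+shNT replicate 1 or, for Gss, without MGT+shNT replicate 2. Gsr, which reduces oxidised glutathione, had 30.9 and 28.2 CPM against 26.0 and 26.9 CPM (-0.16, adjusted p = 0.215).

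The cystine importer supplies the cysteine for glutathione, and it pairs the transporter chain Slc7a11 with the shared heavy chain Slc3a2. Slc7a11 (chr3:49892526-50443614, minus strand) was the scarcest member, at 103 and 71 counts in MGT+shNT against 42 and 67 in MGT+shScd1, or 4.99 and 4.96 against 2.12 and 3.47 CPM. Slc7a11 fell (log2 fold change -0.83, SE 0.26, adjusted p = 0.0288), but its size rested on MGT+shScd1 replicate 1: without that library the log2 fold change was -0.52 and no longer passed, and without replicate 2 it was -1.22. The call was also lost with DESeq2 and on both FPKM scales. Slc3a2 had 107 and 117 CPM against 105 and 111 CPM, with overlapping groups (-0.04, adjusted p = 0.687).

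Transcripts of NRF2 and KEAP1 did not pass. Nfe2l2, the gene of NRF2, had 134 and 122 CPM in MGT+shNT and 123 and 124 CPM in MGT+shScd1 (log2 fold change -0.05, SE 0.06, adjusted p = 0.589). Keap1 had 56.2 and 46.9 CPM against 56.1 and 54.8 CPM (0.10, adjusted p = 0.438), and was called without MGT+shNT replicate 1 (0.25) but had a value of -0.021 without MGT+shNT replicate 2. NRF2 is controlled mainly through the stability of the protein, which these libraries do not measure. Nqo1, a quinone reductase often read as an NRF2 target, was low at 5.28 and 3.98 against 6.83 and 4.92 CPM, with overlapping groups (0.33, SE 0.22, adjusted p = 0.309). Hmox1, haem oxygenase, which frees iron from haem, had 60.1 and 58.2 against 58.4 and 55.4 CPM (-0.06, adjusted p = 0.589).

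Across 12 members that textbooks list as NRF2 targets, grouped after their values were seen, 6 fell (Prdx1, Txn1, Srxn1, Gclm, Slc7a11 and Fth1), 2 rose (Gclc and Ftl1) and 4 did not pass (Txnrd1, Gsr, Nqo1 and Hmox1). Their median log2 fold change was -0.19. Without MGT+shScd1 replicate 1 the counts were 2 that fell and 1 that rose, and without replicate 2 they were 3 and 2. On both FPKM scales, which lack the TMM factors, 2 of the 12 fell and 3 rose, so the balance of directions turned there. The balance also depends on which members are listed: Prdx6 and Slc40a1, which rose (0.42 and 0.59), are not among the 12. Of all 38 members 9 fell and 9 rose, and of all genes tested 16.3% fell and 13.1% rose. Beside the members, 8 lists of related genes of the same pathways were examined, 197 genes of which 179 were tested and 76 called; this number was 30 without MGT+shScd1 replicate 1, 38 without replicate 2 and 46 with DESeq2. In the list of 24 other NRF2 targets and partners, 7 fell, 2 rose and 15 did not pass (median -0.06). The largest called changes there were in Ugdh, UDP-glucose dehydrogenase (138 and 163 against 79.4 and 79.8 CPM, log2 fold change -0.92), and Abcc1, an exporter of glutathione conjugates (114 and 106 against 75.6 and 78.2 CPM, -0.52). Of the small MAF proteins that pair with NRF2 on DNA, Maff and Mafk fell, by 0.48 and 0.33 on the log2 scale. Mafg, another of them, had 102 and 91.7 against 94.5 and 94.3 CPM (-0.04, adjusted p = 0.709) and is named after its values were seen. On both FPKM scales 3 of the 24 fell and 4 rose.

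NRF2 binds the antioxidant response element, and its core, TGACNNNGC, was searched on both strands of RefSeq promoter windows (GRCm38.p6, 250 bases before to 50 after each listed start, which is counted as base 0). The core was in 12.4% of 32851 windows and in the windows of 14.0% of 27025 genes. Of the 38 members 32 had a window, and 7 of these (21.9%) held a match. Sod3, Prdx6, Gclc, Gsr, Hmox1 and Slc40a1 had no entry. The sites are shown to let the core and its setting be read beside the direction of each gene, with the core in capitals, on the strand that reads TGACNNNGC. The matches in genes that fell are given before those in genes that did not pass:
Gclm, chr3:122245413-122245441, minus strand, core from base -134: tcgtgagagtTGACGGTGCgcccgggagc
Prdx1, chr4:116685456-116685484, minus strand, core from base -133: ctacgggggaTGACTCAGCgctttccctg
Srxn1, chr2:152105542-152105570, minus strand, core from base 28: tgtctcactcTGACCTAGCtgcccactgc
Txnrd1, chr10:82859104-82859132, minus strand, core from base -92: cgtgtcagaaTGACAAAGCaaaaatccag
Sod1, chr16:90220696-90220724, minus strand, core from base -56: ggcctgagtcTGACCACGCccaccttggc
Nfe2l2, chr2:75704885-75704913, minus strand, core from base -240: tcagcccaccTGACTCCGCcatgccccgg
Ncoa4, chr14:32165735-32165763, plus strand, core from base -44: aggcggggcgTGACCTGGCcggtagggta

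Of the 7 genes with a match 3 fell, none rose and 4 did not pass, with a median log2 fold change of -0.05. With either MGT+shScd1 library left out 1 of the 7 fell, and on both FPKM scales 1 fell and 1 rose. A match is a run of letters and not a shown binding site. The 250 bases before the starts of Gclm and Prdx1 are given on the plus strand, which is the strand of both genes. The core lies on the opposite strand and so appears reversed and complemented, in capitals:
Gclm, chr3:122245307-122245556: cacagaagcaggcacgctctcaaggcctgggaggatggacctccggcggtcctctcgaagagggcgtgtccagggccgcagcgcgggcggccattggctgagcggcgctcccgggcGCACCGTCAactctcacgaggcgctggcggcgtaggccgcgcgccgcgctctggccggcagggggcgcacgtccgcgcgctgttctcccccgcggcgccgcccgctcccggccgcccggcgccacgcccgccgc
Prdx1, chr4:116685349-116685598: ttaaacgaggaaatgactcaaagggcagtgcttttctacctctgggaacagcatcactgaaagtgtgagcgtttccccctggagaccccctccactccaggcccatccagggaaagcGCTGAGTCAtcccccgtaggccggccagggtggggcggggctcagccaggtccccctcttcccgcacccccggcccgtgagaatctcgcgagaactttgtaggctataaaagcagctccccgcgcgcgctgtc

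Iron is held in ferritin, a shell of heavy chains, which oxidise iron, and light chains, which help to store it. The chains changed in opposite directions. Ftl1 (ENSMUSG00000050708, chr7:45457944-45459884, minus strand), the light chain, had 1007 and 988 CPM in MGT+shNT and 1397 and 1287 CPM in MGT+shScd1, and rose by 34.5% (log2 fold change 0.43, SE 0.06, adjusted p = 0.000188). Fth1 (ENSMUSG00000024661, chr19:9980598-9985098, plus strand), the heavy chain, had 834 and 732 CPM against 687 and 657 CPM, and fell by 14.2% (-0.22, SE 0.07, adjusted p = 0.0294). The groups did not overlap for either chain. The call of Ftl1 held in every alternative, while that of Fth1 was lost without MGT+shNT replicate 1 (-0.12), with either MGT+shScd1 library left out and on both FPKM scales. A processed copy, Ftl1-ps1, held 122 to 247 counts per library, so part of the Ftl1 reads may lie there, and with its counts added Ftl1 still rose (0.43, adjusted p = 0.000193).

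Slc40a1 (chr1:45908068-45926523, minus strand), ferroportin, the iron exporter, was low but rose. It had 6.34 and 7.33 CPM in MGT+shNT and 9.61 and 10.9 CPM in MGT+shScd1, with no overlap (log2 fold change 0.59, SE 0.16, adjusted p = 0.0120). The call was lost with either MGT+shScd1 library left out, with DESeq2 and on log2(FPKM + 0.1). Tfrc, the transferrin receptor that takes iron in, had 44.1 and 34.1 CPM against 30.6 and 33.4 CPM (-0.30, SE 0.11, adjusted p = 0.0597). Tfrc was called with the replicate number as a block (-0.29) and without MGT+shNT replicate 2 (-0.47), while without MGT+shNT replicate 1 its value was -0.085. Ncoa4, which carries ferritin to the lysosome to free its iron, had 58.9 and 64.3 against 66.2 and 63.3 CPM, with overlapping groups (0.08, adjusted p = 0.476).

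When iron is scarce, iron regulatory proteins bind a hairpin in messenger RNA, the iron-responsive element, which blocks translation when it lies before the coding region and protects the RNA from decay when it lies after it. A search of GENCODE M21 transcripts for an unpaired C, 5 bases, the loop CAGTGN and 5 bases that pair with the earlier 5 (G pairing with T allowed) found an element in the UTRs of 174 of 22527 genes with coding transcripts (0.772%). Of the 38 members 4 had such an element, and they are shown because the genes that carry it did not move together. The loop is in capitals, the letters are those of DNA on the gene's strand, and the build is GRCm38:
Fth1, before the coding region, chr19:9982732-9982760: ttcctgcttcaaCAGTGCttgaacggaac
Ftl1, before the coding region, chr7:45459779-45459807: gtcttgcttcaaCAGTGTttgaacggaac
Slc40a1, before the coding region, chr1:45925465-45925493: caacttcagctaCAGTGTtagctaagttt
Tfrc, after the coding region, chr16:32631219-32631247: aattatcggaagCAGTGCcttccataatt
Tfrc, after the coding region, chr16:32631598-32631626: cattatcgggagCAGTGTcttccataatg
Tfrc, after the coding region, chr16:32631663-32631691: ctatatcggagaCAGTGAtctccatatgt
Tfrc, after the coding region, chr16:32631710-32631738: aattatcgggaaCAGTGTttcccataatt

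With the element before the coding region, Ftl1 and Slc40a1 rose and Fth1 fell, and Tfrc, with 4 elements after it, did not pass. The calls of Fth1 and Slc40a1 were lost with either MGT+shScd1 library left out, while their signs held in every alternative. On log2(FPKM + 1) 2 of the 4 genes rose and none fell, and on log2(FPKM + 0.1) 1 rose and none fell. RNA levels do not measure the translation that the leading elements control. Of the proteins that read the element, Aco1 fell (65.9 and 60.0 against 50.4 and 51.2 CPM, log2 fold change -0.31, adjusted p = 0.00565) and Ireb2 did not pass (0.02), and Fbxl5, which marks the protein of Ireb2 for breakdown when iron is plentiful, fell (-0.33, adjusted p = 0.0127). These 3 genes were chosen after their values were seen.

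In the list of other genes of iron uptake, export and regulation, 20 of 25 were tested. Of these 7 fell, 3 rose and 10 did not pass, where 16.3% of all genes tested fell and 13.1% rose. The median log2 fold change of the list was -0.24. Slc11a1, a metal carrier of phagosomes in macrophages, fell from 8.66 and 7.89 CPM to 2.98 and 3.26 CPM (-1.41, adjusted p = 0.000107). Bmp6, the signal that raises hepcidin in liver, fell from 30.7 and 30.7 CPM to 17.9 and 20.4 CPM (-0.68, adjusted p = 0.000214). The copper oxidases that load exported iron onto transferrin rose: Heph from 20.1 and 15.9 CPM to 28.9 and 29.0 CPM (0.67, adjusted p = 0.000659), and Cp from 50.8 and 33.9 CPM to 59.5 and 61.7 CPM (0.50, adjusted p = 0.0113). Macrophages are rich in ferritin, ferroportin and Slc11a1, and the macrophage markers summed to 1047 and 903 CPM in MGT+shNT and to 281 and 282 CPM in MGT+shScd1. Their part in the values of the iron genes was not tested. Without MGT+shScd1 replicate 1, 2 of the 20 fell and 1 rose, and on both FPKM scales 3 fell and 3 rose.

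Among 25 genes of haem and iron-sulphur use, 2 rose, 4 fell and 19 did not pass (median -0.05), and with either MGT+shScd1 library left out 1 rose and 2 fell. The shares over all genes tested were 13.1% that rose and 16.3% that fell. Cpox, an enzyme of haem synthesis in mitochondria, rose from 79.3 and 79.9 CPM to 125 and 123 CPM (log2 fold change 0.64, adjusted p = 5.07e-06). Slc48a1, a haem carrier of endosomes, fell by 0.58 on the log2 scale, and Flvcr1, described as a haem exporter, by 0.39.

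Acsl4, Lpcat3 and Aifm2, which shape membrane lipids or protect them from peroxidation, did not pass. Acsl4, which charges polyunsaturated fatty acids for phospholipids and so favours ferroptosis, had 58.9 and 55.1 CPM in MGT+shNT and 63.7 and 66.7 CPM in MGT+shScd1 (log2 fold change 0.19, SE 0.07, adjusted p = 0.0578). Lpcat3, which puts those fatty acids into phospholipids, had 39.0 and 37.5 against 45.6 and 41.6 CPM (0.19, adjusted p = 0.103). Both were higher in both MGT+shScd1 libraries without passing, and Acsl4 was called without MGT+shNT replicate 1 (0.25). Over all left-out libraries the log2 fold change of Acsl4 ran from 0.15 to 0.25 and that of Lpcat3 from 0.12 to 0.25. Aifm2, the gene of ferroptosis suppressor protein 1, which regenerates ubiquinol, had 22.6 and 20.5 against 18.8 and 18.9 CPM (-0.20, adjusted p = 0.178).

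Of 34 other genes of lipid peroxidation and ferroptosis 29 were tested, and 5 rose, 8 fell and 16 did not pass (median -0.18). Among all genes tested 13.1% rose and 16.3% fell. Gch1, which makes the antioxidant cofactor tetrahydrobiopterin, fell from 9.10 and 6.08 CPM to 5.06 and 4.51 CPM (log2 fold change -0.69, adjusted p = 0.0263). Acsl3, which charges monounsaturated fatty acids and is known to oppose ferroptosis, fell from 22.9 and 24.6 CPM to 18.7 and 17.4 CPM (-0.39, adjusted p = 0.0122). Sat1, of polyamine breakdown, fell by 0.61 on the log2 scale, and Gnpat, which starts the synthesis of ether lipids, rose by 0.54. Of the 29 genes 2 fell with either MGT+shScd1 library left out and on both FPKM scales, and with DESeq2 3 fell and 1 rose.

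In the list of glutathione transferases, glutathione turnover and glutaredoxins, 30 of 32 were tested, and 8 rose, 4 fell and 18 did not pass (median 0.13). Without MGT+shScd1 replicate 1, 4 rose and 2 fell, without replicate 2 the counts were 5 and 2, and with DESeq2 5 and 3. Mgst3, a microsomal transferase, rose from 15.6 and 14.8 CPM to 23.5 and 23.6 CPM (log2 fold change 0.63, adjusted p = 0.000576). Gstk1, a transferase of mitochondria and peroxisomes, rose by 1.09 on the log2 scale from low levels (1.69 and 1.19 against 3.08 and 3.16 CPM). Anpep, an aminopeptidase that trims products of glutathione breakdown, fell from 45.5 and 38.8 CPM to 21.7 and 22.1 CPM (-0.95, adjusted p = 9.66e-06), and Gstt1 fell by 1.12.

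Of 20 genes of thioredoxin-fold proteins, methionine repair and sestrins 4 rose, 7 fell and 9 did not pass (median -0.16). On both FPKM scales 4 rose and 1 fell, without MGT+shScd1 replicate 1 the counts were 1 and 2, without replicate 2 they were 3 and 2, and with DESeq2 3 and 3. Txndc17, a cytosolic thioredoxin-like protein, changed most, from 50.5 and 50.5 CPM to 12.5 and 14.3 CPM (log2 fold change -1.91, SE 0.10, adjusted p = 1.95e-08). Txnip, which binds thioredoxin and restrains it, fell by 0.39, whereas Msra, a methionine sulfoxide reductase, rose by 0.62 and Sesn2, a stress-induced sestrin, by 0.44. Of 19 tested genes of selenoproteins and selenium use 3 rose, 3 fell and 13 did not pass (median -0.03), and 1 rose with DESeq2 and without MGT+shScd1 replicate 2. To set beside both lists, 13.1% of all genes tested rose and 16.3% fell. Selenok and Selenof, proteins of the endoplasmic reticulum, fell by 0.77 and 0.59. Selenop, which carries selenium between cells, rose by 0.43 and Eefsec, which inserts selenocysteine, by 0.51.

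**Figure D4:**
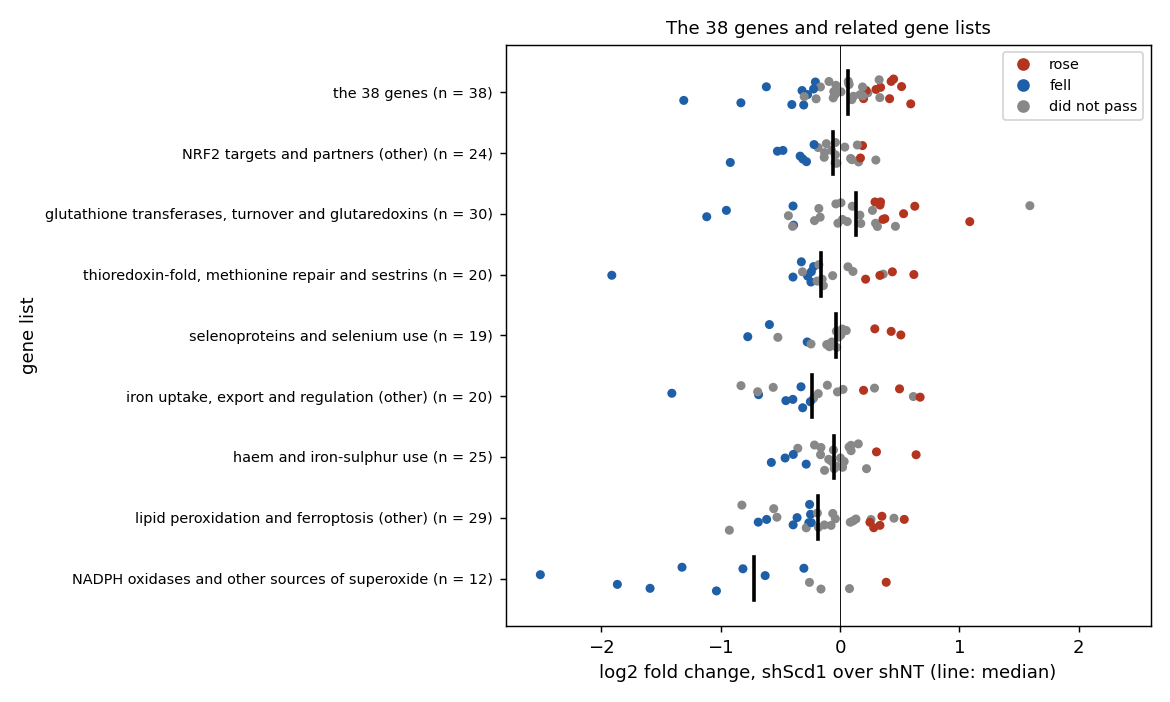
Log2 fold change of every tested gene in the 38-gene set and in each of 8 lists of related genes, MGT+shScd1 over MGT+shNT, with black lines for the median of each list; vertical scatter within a list has no meaning. The sources of superoxide in the lowest row have the lowest median, -0.72, and hold the lowest value, -2.51 for Cybb.

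Of 17 NADPH oxidase and other superoxide source genes 12 were tested, and 8 fell, 1 rose and 3 did not pass, where 16.3% of all genes tested fell. Their median log2 fold change was -0.72 against 0.0001 over all genes. Cybb, the catalytic subunit of the phagocyte oxidase, fell from 28.6 and 18.5 CPM to 3.89 and 4.46 CPM (-2.51, SE 0.20, adjusted p = 1.08e-06). Cytosolic partners of it fell too, Ncf1 from 10.1 and 5.10 CPM to 1.87 and 2.38 CPM (-1.87) and Ncf4 from 30.8 and 33.0 CPM to 11.4 and 9.74 CPM (-1.59).

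Others of the list, named here after their values were seen, are also used outside phagocytes. Cyba, the membrane partner of several oxidases, fell from 62.4 and 55.9 CPM to 39.9 and 36.9 CPM (log2 fold change -0.63, adjusted p = 7.43e-05). Xdh, xanthine dehydrogenase, fell from 114 and 96.0 CPM to 60.7 and 59.3 CPM (-0.81, adjusted p = 7.40e-06). Nox4, a constitutively active oxidase of fibroblasts and muscle, had 10.6 and 9.78 against 12.3 and 14.5 CPM and rose at the edge of the threshold (0.39, adjusted p = 0.0496), a call that was lost in 8 of the 14 alternatives, DESeq2 and limma-voom among them.

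The phagocyte oxidase genes moved with the macrophage markers. Cd68, a lysosomal marker of macrophages, fell from 43.0 and 37.9 CPM to 7.18 and 7.51 CPM, and Lyz2, lysozyme, from 567 and 552 CPM to 126 and 118 CPM. Of the 20 macrophage markers 15 fell, 1 rose (C1qb) and 4 did not pass (Csf1r, Aif1, Laptm5 and C1qa), so not all of the list moved. The part of macrophages in the lower oxidase levels was not tested. The number of superoxide source genes that fell was 5 without MGT+shNT replicate 1 and with either MGT+shScd1 library left out, and 5 on both FPKM scales.

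**Figure D5:**
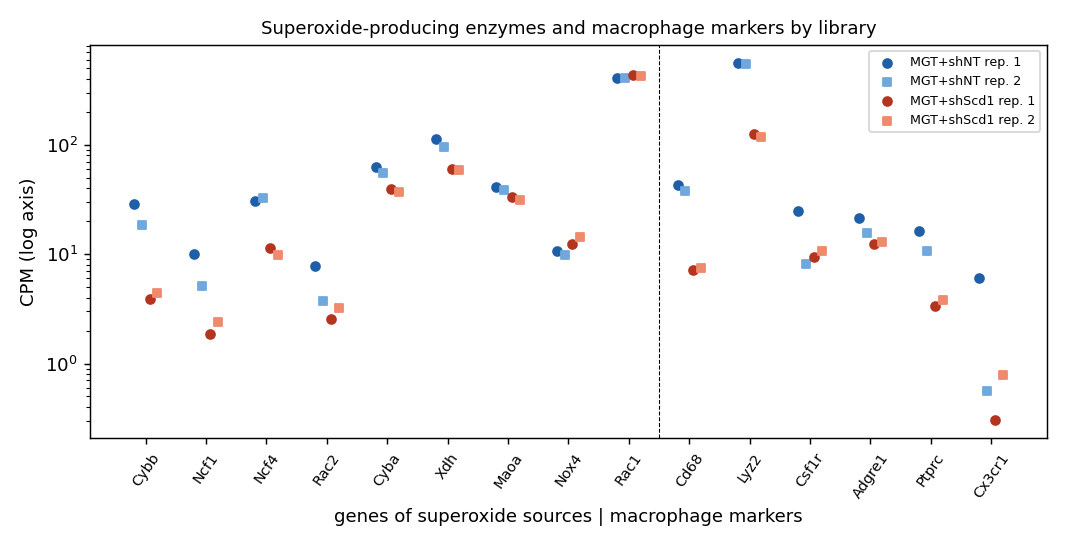
CPM on a log axis of genes that make superoxide (left of the dashed line) and of 6 of the 20 macrophage markers (right). Each library has a mark, blue for MGT+shNT and red for MGT+shScd1. Cybb, Ncf1 and Ncf4 and the markers Cd68, Lyz2, Adgre1 and Ptprc are lower in both MGT+shScd1 libraries. Rac1 is at about the same level in all 4, and Csf1r and Cx3cr1 overlap between the groups. Among the markers not drawn are C1qb, which rose, and Aif1, Laptm5 and C1qa, which did not pass.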

How the data were processed

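RNA was extracted with TRIzol, per the labels' protocols, which describe ribosomal RNA depletion and stranded read pairs, while the labels name polyA RNA. The authors deposited raw counts per gene and FPKM. The deposited FPKM equalled those recomputed from count, exonic length and library total for 100% of values within 0.005. Per the submitters' processing notes, mm10, featureCounts, SAMtools, Subread 1.5.1 and Trimmomatic 0.36 were used. For aligner, annotation, strand setting and multiply mapped reads the sources used here give nothing, so overlapping genes and near-identical copies are uncertain.

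Groups were compared with the quasi-likelihood test of edgeR 4.0.16 (R 4.3.3), two-sided, with group as its term, on counts of the 16234 genes kept by filterByExpr (minimum count 10, total 15), with TMM factors of 0.946 to 1.04. DESeq2 1.42.0, limma 3.58.1 (voom, and log2 of FPKM plus 1 or 0.1), other filters and scaling, left-out libraries, a replicate block and added pseudogene counts were alternatives. Replicates of a group differed by more than sampling noise (chi-square per degree of freedom 43.6 in MGT+shNT and 2.82 in MGT+shScd1), so all 4 libraries were counted. The value for MGT+shNT includes Rn18s-rs5, which took 0.199% of the counts in replicate 1 and 3.32% in replicate 2. SE is the size of the log2 fold change divided by the square root of the F statistic of the edgeR test. The spread behind the p-values may be technical.

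The 38 genes, the 8 related lists and the marker lists of macrophages, fibroblasts, cardiomyocytes, endothelial and erythroid cells were chosen with earlier results of these data known. All 38 are named, and in each related list the 4 called genes with the largest changes and a mean of at least 1 CPM in the higher group; 2 of these are not reported here. Positions are from GENCODE M21 and promoters from RefSeq.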

Additional observations from a re-analysis of the deposited data

How the results depend on the processing

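The direction of all 18 called members held in all 14 alternatives (13 planned, 1 added after seeing the data), and 6 of them kept the call in each; 6 of the 20 uncalled members were called in at least 1. A left-out library leaves a lone sample in its group, which is assumed to vary like the other group. Over the left-out libraries, called members ranged from 7 to 18 (3 to 11 rose, 4 to 10 fell), all called genes from 2272 to 5395 (897 to 2450 rose, 1375 to 2945 fell) and called genes of the related lists from 30 to 75, against 76 in the main test, with the low ends without MGT+shScd1 replicate 1. With DESeq2, 5 members and 1356 genes rose and 46 related genes were called. On log2(FPKM + 1) and log2(FPKM + 0.1), 3 and 3 members and 1249 and 1266 genes fell, and 45 and 46 related genes were called, on scales where the median of all genes stood 0.06 and 0.09 higher. Signs turned for uncalled members near 0: on these scales Sod2 (0.051 and 0.059), Slc3a2 (0.053 and 0.054), Nfe2l2 (0.047 and 0.048) and Hmox1 (0.039 and 0.040), and over left-out libraries Sod2 (-0.097 to 0.024), Gpx1 (-0.27 to 0.066), Gpx4 (-0.018 to 0.033), Gpx7 (-0.076 to 0.20), Slc3a2 (-0.098 to 0.020), Nfe2l2 (-0.12 to 0.029) and Keap1 (-0.021 to 0.25). The deposited FPKM are relative to library totals, without the TMM factors. For the MGT+shNT libraries these factors were 0.989 and 0.946, lower than the 1.035 and 1.033 of the MGT+shScd1 libraries. Leaving them out places every gene higher in MGT+shScd1 relative to MGT+shNT, the direction of the medians of 0.06 and 0.09. The part of this scaling in the calls lost on the FPKM scales was not tested, nor were the causes of the other shifts. Depth limits most the members with fewest counts, Slc7a11 (42 to 103 per library) and Nqo1 (57 to 135).

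With the replicate block, 20 members (10 rose, 10 fell) and 4990 genes were called, Prdx3 and Tfrc being added. The correlation of same-numbered deviations was -0.08 over 11245 genes. It rests on a lone difference between replicates in each group, so it cannot exclude that same-numbered libraries were handled together.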
